A study of Homo sapiens with 4 samples.

Results

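The 10 mRNAs described here encode the 6 proteins of shelterin (TERF1, TERF2, TERF2IP, TINF2, POT1 and ACD) and 4 proteins of the telomerase ribonucleoprotein (DKC1, NHP2, GAR1 and TERT). They were taken by gene symbol from a table of 26490 identifiers, and each was listed on a single line. The table reports PAR-CLIP of the helicase DHX36 in HEK293 cells, an established line from human embryonic kidney. PAR-CLIP crosslinks RNA that carries 4-thiouridine to the protein by UV light, and a T-to-C change in the sequenced read marks the contact. The FH-DHX36 line carried a tetracycline-inducible HA- and FLAG-tagged DHX36 isoform 2, and the FH-DHX36-E335A line carried isoform 1 with the helicase-dead E335A change, so that isoform and mutation cannot be told apart. In both lines the transgene was switched on with tetracycline at 500 ng per ml for 15 h, cells were labeled with 100 µM 4-thiouridine and irradiated at 365 nm for 5 min, and RNA was recovered with a FLAG antibody. The labels give no deletion of the cells' own DHX36 gene in either line. There were 2 replicates per line, but the table holds 1 pooled set of values per line. No replicate spread and no test between the lines was therefore possible, and the intervals given below cover counting error only. The FH-DHX36 columns sum to 2160413 crosslinked reads, and those of FH-DHX36-E335A to 8752127. A cluster is a group of overlapping reads with such changes, and exonic reads are those in 5'UTR, CDS and 3'UTR. The paper worked with clusters that were reproducible between both replicates. Whether the listed clusters had to pass that filter is not given in the sources used here, so a missing cluster need not mean absence in each replicate. Reads outside these regions and introns are called reads of other annotation, since the table does not name it. Of the cell line markers looked up, NEFL and VIM carried clusters in both PAR-CLIPs and NEFM in neither, while HBB, ALB and PTPRC, genes of other tissues, had none.

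Shelterin is the protein complex that coats the TTAGGG repeats of chromosome ends. TERF1 and TERF2 hold the double-stranded repeats, POT1 holds the single-stranded overhang, TINF2 and ACD join the parts, and TERF2IP rides on TERF2. Telomerase lengthens the repeats with the reverse transcriptase TERT, which copies a template in the telomerase RNA TERC. DKC1, NHP2 and GAR1 are H/ACA proteins, which form particles with TERC as well as with H/ACA small nucleolar RNAs. DHX36 is known to unwind G-quadruplexes, 4-stranded structures of guanine-rich DNA or RNA, and to bind TERC. The question here was whether, and where, it also contacted the mRNAs that encode the proteins.

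Because the study related DHX36 binding to guanine-rich RNA, the canonical mRNAs of the 10 genes were searched on the sense strand for stretches with 4 or more guanine runs, each of at least 2 bases, spaced by 1 to 7 nt of any base. The annotation was GENCODE release 44 on GRCh37. Below are a few of the matches, chosen because they lie in the mRNA regions that held most of the exonic reads of GAR1, NHP2, TERF2IP and TERF2, together with a TERT match from an mRNA without a cluster. Capitals mark the guanine runs. The GAR1 and TERF2IP genes are on the plus strand and the others on the minus strand.
GAR1 CDS, chr4:110737333-110737349: GGcGGaGGtcgtGGaGG
GAR1 CDS, chr4:110737360-110737376: GGtGGtGGaGGtGGcGG
GAR1 CDS, chr4:110737411-110737436: GGtGGaGGcGGcGGtGGaGGcGGcGG
NHP2 3'UTR, chr5:177576650-177576671: GGGctGGcagcaGGacgactGG
TERF2IP 3'UTR, chr16:75690542-75690555: GGtaGGtgaGGtGG
TERF2IP 3'UTR, chr16:75690838-75690857: GGaaatttaGGaGGcataGG
TERF2 CDS, chr16:69419768-69419783: GGGaGGGcGGGGaGGG
TERT CDS, chr5:1294222-1294247: GGGcaGGGGtcctGGGcccacccGGG
The GAR1 matches lie in frame and are strings of GGN codons for glycine, with a single arginine codon in the first. GAR1 is named for its glycine- and arginine-rich ends, and its CDS held 5 of the 6 matches of the mRNA, the last of them 140 nt long and spread over 3 exons. The TERF2 and TERT sequences are shown because they, unlike the others printed, are made of runs of at least 3 guanines. Under the rule of 2 guanines each is part of a longer match, of 68 nt in TERF2 and 38 nt in TERT. With the stricter rule of 3 guanines only TERF1, TERF2 and TERT had a match, 1 each, so that the count over all 10 mRNAs was 3 instead of 72.

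Every one of the 10 mRNAs held at least 1 match in its CDS under the rule of 2 guanines, 58 in all. There were 9 matches in the 3'UTRs of 6 genes and 5 in 5'UTRs. Such matches are common. Of other CDSs at least as long as that of GAR1, 75.9% held a match in their first 654 nt, and 36.9% of 3'UTRs held one in a stretch as long as the NHP2 3'UTR of 250 nt. Per length, GAR1 had 5.91 matches per kb of mRNA, a density above that of 93.8% of 18821 mRNAs, and TERT had 5.20, above 89.4%. POT1 was at the other end with 0.255 per kb, above 6.08%, and TERF1 had 1.20. The median mRNA had 2.10. Since all 10 mRNAs held a match, the presence of matches could not separate bound from unbound members. The 2 mRNAs without a cluster, TERT and DKC1, held 21 and 8 matches. The table does not give cluster positions, so no match can be assigned to a binding site.

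**Figure D1:**
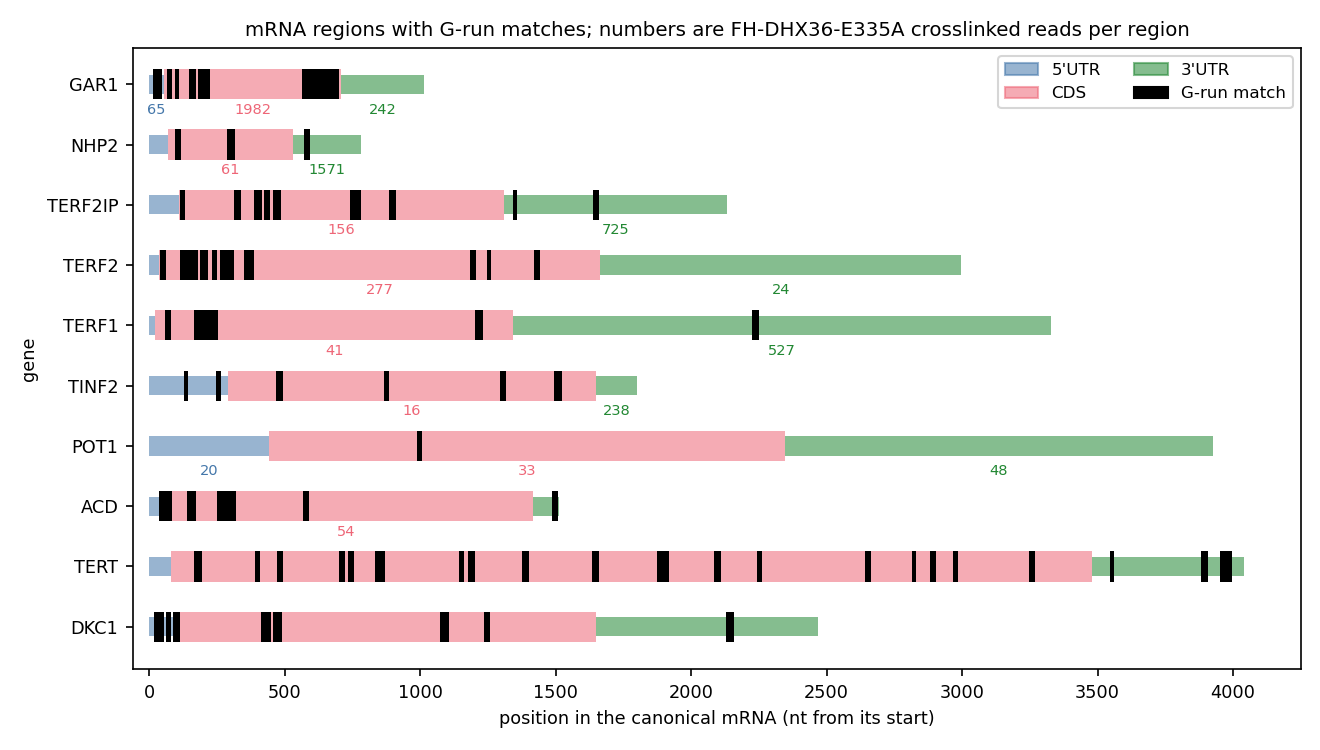
Canonical mRNAs of the 10 genes drawn to scale, with position in nt from the mRNA start on the horizontal axis; colors mark 5'UTR, CDS and 3'UTR, black bars mark G-run matches, and numbers give FH-DHX36-E335A crosslinked reads listed for the region. The 1982 CDS reads of GAR1 lie in a CDS with 5 matches, whereas the 21 matches of TERT lie on an mRNA without reads.

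FH-DHX36-E335A clusters were listed on 8 of the 10 mRNAs, compared with 34.5% of all identifiers in the table. FH-DHX36 clusters were listed on 6 of the 10, compared with 22.4%. The table lists genes whether or not HEK293 cells express them, so the shares of all identifiers are no measure of enrichment. All 6 shelterin mRNAs had an FH-DHX36-E335A cluster, and 4 of them also had an FH-DHX36 cluster. Of the telomerase mRNAs, GAR1 and NHP2 were bound in both PAR-CLIPs, and DKC1 and TERT in neither. The 10 genes together carried 47 clusters and 6857 crosslinked reads for FH-DHX36-E335A, which is 0.0783% of all its reads, and 10 clusters and 2169 reads in the FH-DHX36 PAR-CLIP, or 0.100%. GAR1 and NHP2 accounted for 61.0% of the FH-DHX36-E335A reads of the group and 65.8% of its FH-DHX36 reads.

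**Figure D2:**
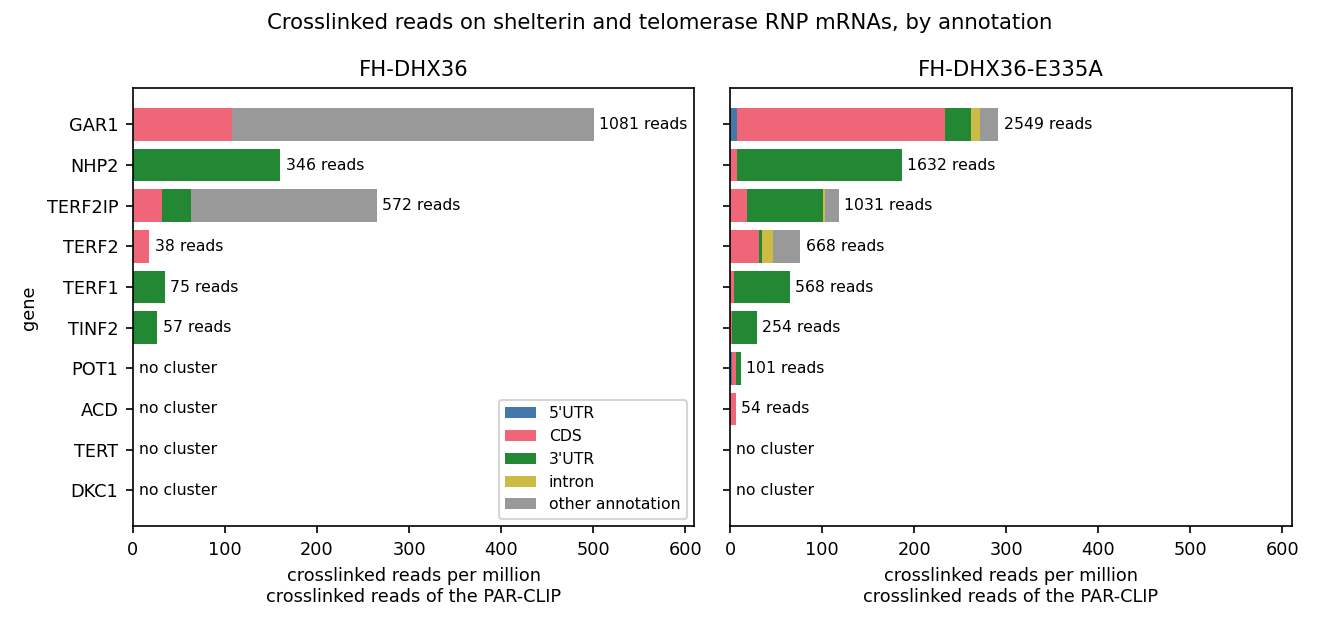
Crosslinked reads on each of the 10 mRNAs, scaled to 1000000 crosslinked reads of the PAR-CLIP, for FH-DHX36 (left) and FH-DHX36-E335A (right); colors give the annotation, and the number of reads stands beside each bar. GAR1 had the most reads in both, and gray reads of other annotation made up most of the FH-DHX36 bars of GAR1 and TERF2IP.

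By crosslinked reads the order with FH-DHX36-E335A was GAR1, NHP2, TERF2IP, TERF2, TERF1, TINF2, POT1 and ACD. The closest neighbors were TERF2 with 668 reads (95% Poisson interval 618 to 721) and TERF1 with 568 (522 to 617), whose intervals lay side by side without overlap. With FH-DHX36 the order was GAR1, TERF2IP, NHP2, TERF1, TINF2 and TERF2. There the intervals of TERF1 (59.0 to 94.0 reads) and TINF2 (43.2 to 73.9) overlapped, as did those of TINF2 and TERF2 (26.9 to 52.2). The other neighbors in both orders did not overlap. Among all genes with a cluster, the median was 326 FH-DHX36-E335A reads and 121 FH-DHX36 reads. In these terms 5 of the 8 bound members lay above the FH-DHX36-E335A median and 3 of 6 above the FH-DHX36 median.

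GAR1, the H/ACA protein with glycine- and arginine-rich ends, is encoded on chromosome 4 (GRCh37, plus strand), where its canonical transcript runs from 110736918 to 110745893 in 7 exons. Only NHP2 has a shorter mRNA in the group. The GAR1 mRNA has 1015 nt, of which 654 nt are CDS, 306 nt are 3'UTR and 55 nt are 5'UTR. FH-DHX36-E335A formed 9 clusters on it with 2549 crosslinked reads, more reads than on 91.2% of the genes with a cluster. The CDS held 1982 of these reads in 4 clusters, or 77.8% (95% Wilson interval 76.1% to 79.3%). A further 242 lay in the 3'UTR, 65 in the 5'UTR, 84 in introns and 176 outside these 4 annotations. FH-DHX36 formed 2 clusters with 1081 reads, which ranked 424 among the 5930 genes with an FH-DHX36 cluster. The CDS held 1 of these clusters with 232 reads, whereas the other, with 849 reads, was of none of the 4 annotations. GAR1 had the highest NXPM of the group in both PAR-CLIPs, with values of 39.5 (FH-DHX36) and 23.0 (FH-DHX36-E335A). NXPM is the authors' score of scaled crosslinked reads divided by mRNA abundance. Scaled in the same way to CDS reads alone, it was 106 in the FH-DHX36-E335A PAR-CLIP.

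For GAR1, the 3 genes with the most similar reads were taken by the Euclidean distance of log10(reads + 1) over the 8 values for 5'UTR, CDS, 3'UTR and intron in both PAR-CLIPs. They were SWAP70 at a distance of 0.803, SUGP2 at 0.846 and UAP1 at 0.867. These genes were picked on the regional reads, so that their likeness there is given by the choice. The distance leaves out reads of other annotation, which made up 849 of the 1081 FH-DHX36 reads of GAR1.

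NHP2, a second H/ACA protein, joins the particle through NOP10. The NOP10 mRNA, named here after its values were seen, had 445 FH-DHX36-E335A reads and no FH-DHX36 cluster. The NHP2 gene lies on the minus strand of chromosome 5, with a canonical transcript from 177576464 to 177580886 in 4 exons, and overlaps RMND5B on the opposite strand over 1106 nt. The mRNA of 780 nt is the shortest of the group. FH-DHX36-E335A formed 4 clusters with 1632 reads, of which 1571 in 3 clusters lay in the 3'UTR of 250 nt, a share of 96.3% (95.2% to 97.1%). Both FH-DHX36 clusters, with 346 reads, were in the 3'UTR. Per length this was the densest region of the group, with 718 FH-DHX36-E335A reads per kb of 3'UTR after scaling to 1000000 reads, compared with 346 for the CDS of GAR1. By NXPM, in contrast, NHP2 was the lowest of the bound members, at 0.206 for FH-DHX36-E335A and 0.177 in the FH-DHX36 PAR-CLIP. The abundance recovered for NHP2 was 904 on the FPKM scale, higher than for 98.5% of genes with an FH-DHX36-E335A cluster, and compared with 12.7 for GAR1. How far the short transcript or the overlapping gene contributes to that abundance was not tested.

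TERF2IP encodes RAP1, the partner of TERF2. It lies on the plus strand of chromosome 16 with a canonical transcript from 75681671 to 75691330 in 3 exons, of which 1200 nt are CDS and 821 nt 3'UTR. KARS1 overlaps this transcript on the opposite strand over 871 nt. FH-DHX36-E335A formed 9 clusters with 1031 reads, 725 of them in the 3'UTR in 4 clusters, 156 in the CDS, 20 in an intron and 130 of other annotation. FH-DHX36 formed 3 clusters with 572 reads, of which 435 came from a cluster of other annotation, 69 from the 3'UTR and 68 from the CDS. NXPM was 31.2 in the FH-DHX36 PAR-CLIP, compared with 13.9 for FH-DHX36-E335A. Both PAR-CLIPs thus listed exonic reads in the same regions, but in the FH-DHX36 PAR-CLIP 76.0% of reads (72.4% to 79.4%) were of other annotation, compared with 12.6% (10.7% to 14.8%) with FH-DHX36-E335A.

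TERF2, which protects chromosome ends from being joined, lies on the minus strand of chromosome 16, with a canonical transcript from 69389470 to 69419910 in 10 exons. It overlaps ENSG00000260371, a protein-coding gene on the same strand, over 740 nt. How reads there were assigned and whether the counting used strand is not given in the sources used here. TERF2 is therefore described with its reads as listed. It carried the most clusters of the group, 14 with FH-DHX36-E335A, on which 668 reads fell. The CDS held 6 clusters with 277 reads, introns held 5 with 109, the 3'UTR of 1331 nt held 1 with 24, and 2 clusters with 258 reads were of other annotation. FH-DHX36 formed 1 cluster with 38 reads in the CDS. NXPM was 12.1 for FH-DHX36-E335A, compared with 2.79 for FH-DHX36.

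TERF1, the other protein on double-stranded repeats, differed in where its reads fell. The gene lies on the plus strand of chromosome 8, with a canonical transcript from 73921099 to 73960358 that has 3329 nt and the longest 3'UTR of the group, 1986 nt. FH-DHX36-E335A had 527 of its 568 reads in 1 cluster in the 3'UTR and 41 in 1 CDS cluster. All 75 FH-DHX36 reads came from 1 cluster in the 3'UTR. The share of exonic FH-DHX36-E335A reads in the 3'UTR was thus 92.8% for TERF1 and 7.97% for TERF2. NXPM of TERF1 was 16.8 with FH-DHX36-E335A, the second highest of the group, and 9.00 with FH-DHX36.

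TINF2, the bridge between both TERF proteins and ACD, lies on the minus strand of chromosome 14, with a canonical transcript from 24708849 to 24711829. FH-DHX36-E335A had 238 of 254 reads in 2 clusters in the 3'UTR and 16 in 1 CDS cluster. FH-DHX36 had 57 reads, all in 1 cluster in the 3'UTR. The 3'UTR of the canonical transcript has 154 nt and holds no G-run match, whereas the longest annotated transcript has a 3'UTR of 772 nt. The density of 177 FH-DHX36-E335A reads per kb of 3'UTR, scaled in the same way, therefore depends on the transcript taken. NXPM was 3.33 and 3.03 in the FH-DHX36-E335A and FH-DHX36 PAR-CLIPs.

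POT1 and ACD, which form a dimer on the single-stranded overhang, had FH-DHX36-E335A clusters alone. POT1 lies on the minus strand of chromosome 7, with a canonical transcript from 124462440 to 124569879 in 19 exons. It carried 5 clusters with 101 reads, of which 48 fell in the 3'UTR, 33 in coding sequence and 20 in the 5'UTR. ACD, encoded on chromosome 16 (minus strand, 67691415 to 67694163), carried 1 CDS cluster with 54 reads, and it was the member with the fewest reads among those bound. NXPM was 4.24 for POT1 and 0.533 for ACD. At an equal share of reads, 24.9 FH-DHX36 reads would fall on POT1 and 13.3 on ACD. The lowest number of reads listed for any gene with an FH-DHX36 cluster was 6. Of all genes, 13.1% had a cluster in the FH-DHX36-E335A PAR-CLIP alone, and of the 1184 genes with 50 to 110 FH-DHX36-E335A reads, a window set after the values were seen, 33.3% had an FH-DHX36 cluster. A gene without a cluster is listed with 0 reads, so these zeros follow from the cluster call. They give no limit on the reads to set against the expected values. FH-DHX36 clusters on POT1 and ACD were thus not detected, and why was not tested.

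DKC1, the pseudouridine synthase of the particle, and TERT had no cluster in either PAR-CLIP, which also holds for 64.5% of all identifiers. DKC1 lies on the plus strand of chromosome X, with a canonical transcript from 153991139 to 154005964, and TERT on chromosome 5 (minus strand, 1253282 to 1295183). The table gives no mRNA abundance for genes without clusters. Whether few reads or no binding lies behind these zeros can therefore not be told apart. DKC1 hosts SNORA36A and SNORA56 on the same strand, and how reads on such nested genes were assigned is not given in the sources used here. TERC itself also had no cluster.

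**Figure D3:**
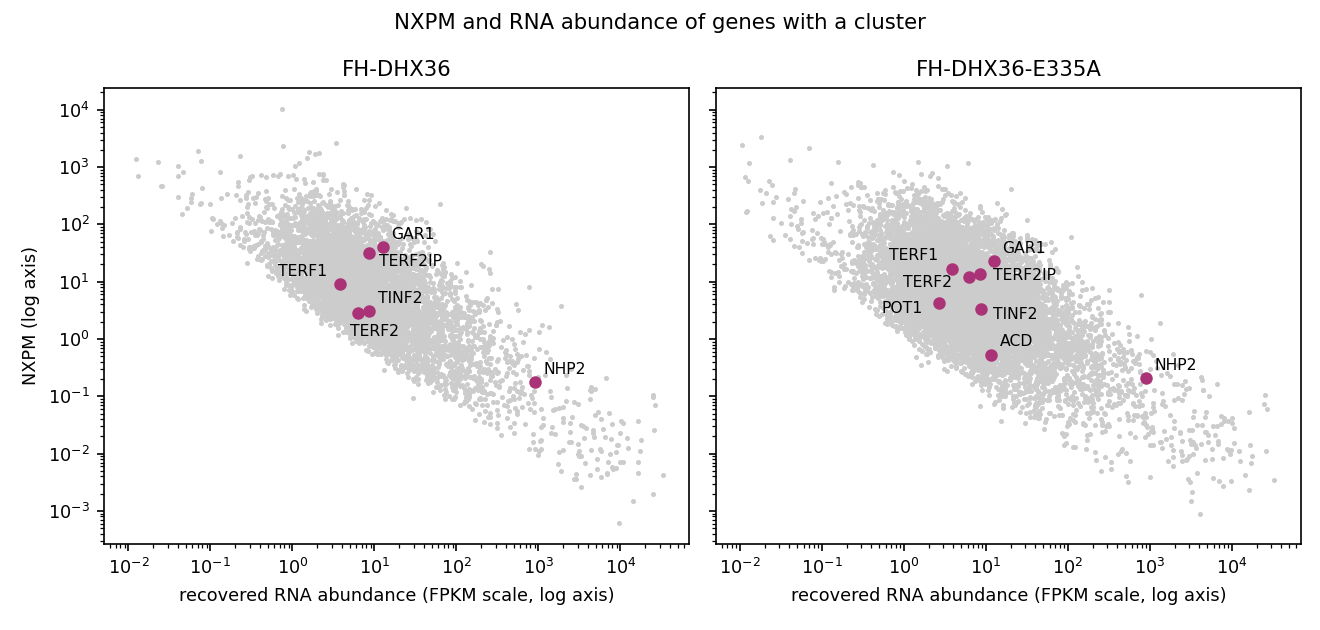
NXPM against RNA abundance recovered from reads and NXPM, both on log axes, for genes with a cluster in the FH-DHX36 (left) and FH-DHX36-E335A (right) PAR-CLIP with an abundance of at least 0.01; members are in purple. NHP2 stands far to the right at an abundance of 904, and the other members lie between 2.72 and 12.7.

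Apart from NHP2, the recovered abundances of the bound members lay between 2.72 for POT1 and 12.7 for GAR1. These were higher than for 28.6% and 68.8% of genes with an FH-DHX36-E335A cluster. Over this range NXPM with FH-DHX36-E335A ran from 0.533 for ACD to 23.0 for GAR1. The median NXPM of genes with a cluster was 5.66 for FH-DHX36-E335A, compared with 7.84 for FH-DHX36, and 4 of 8 and 3 of 6 bound members lay above it. The highest member, GAR1, had a higher NXPM than 78.2% of genes with an FH-DHX36-E335A cluster and 83.2% of those with an FH-DHX36 cluster.

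Both PAR-CLIPs were next compared for the 6 members bound in each, with reads scaled to 1000000 crosslinked reads of the PAR-CLIP (RPM). The median ratio of FH-DHX36-E335A to FH-DHX36 over all 5669 genes bound in both was 1.09. Of these genes, 28.6% were at least 2-fold higher with FH-DHX36-E335A and 24.8% at least 2-fold lower. Among the 6 members 1 was past 2-fold in each direction, and 4 had a ratio above 1, compared with 53.4% of genes. TERF2 had 17.6 RPM with FH-DHX36, compared with 76.3 RPM for FH-DHX36-E335A, a ratio of 4.34 (95% exact binomial interval 3.13 to 6.19). TERF1 had 34.7 and 64.9 RPM, a ratio of 1.87 (1.47 to 2.41). NHP2 with 1.16 (1.04 to 1.31) and TINF2 with 1.10 (0.822 to 1.49) were near the median of all genes. GAR1 had 500.4 RPM with FH-DHX36, compared with 291 RPM for FH-DHX36-E335A, a ratio of 0.582 (0.542 to 0.626). TERF2IP, with 265 and 118 RPM, had the lowest ratio, 0.445 (0.401 to 0.494).

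On GAR1 and TERF2IP most FH-DHX36 reads were of other annotation. On GAR1 these were 19.5 times higher with FH-DHX36 (16.6 to 23.1), and on TERF2IP 13.6 times (11.1 to 16.6), after scaling to all reads. Such reads made up 59.2% of the FH-DHX36 reads of the group and 8.23% of its FH-DHX36-E335A reads, whereas over all genes the shares were 16.7% and 21.4%. With FH-DHX36, 10.4% of genes with a cluster had most of their reads outside the 4 annotations, and GAR1 and TERF2IP were 2 of the 6 bound members. With exonic reads alone, scaled to all exonic reads, the GAR1 ratio was 2.46 (2.15 to 2.83) and the TERF2IP ratio 1.60 (1.34 to 1.93), both above 1. In this comparison, which was added after seeing the data, the TERF2 ratio was 1.97 (1.41 to 2.84), TERF1 stood at 1.89, NHP2 at 1.18 and TINF2 at 1.11, with an interval of 0.830 to 1.51 that includes 1. All 6 exonic ratios were above 1, compared with 51.8% of 4790 genes, whose median was 1.05. Exonic reads were at least 2-fold higher on 29.2% of these genes, and on 1 of the 6 members, GAR1. They were at least 2-fold lower on 26.7% of the genes and on 0 of the 6.

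**Figure D4:**
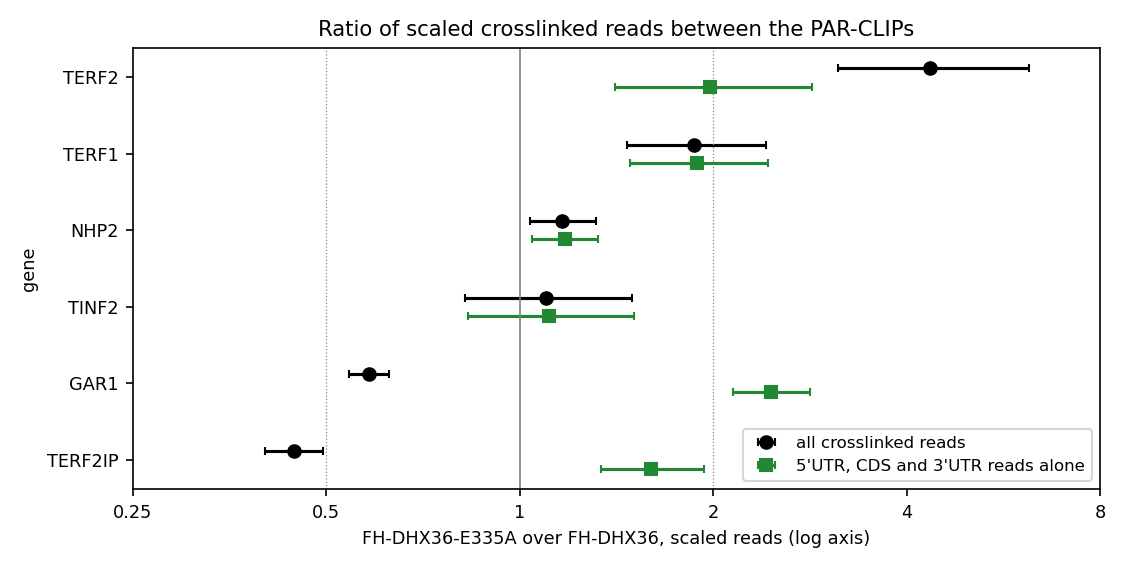
Ratio of scaled crosslinked reads, FH-DHX36-E335A over FH-DHX36, on a log axis for the 6 members bound in both PAR-CLIPs; circles use all reads, squares the exonic reads, bars are 95% exact binomial intervals of counting error, and dotted lines mark 2-fold. GAR1 and TERF2IP lie below 1 with all reads and above 1 with exonic reads, while TERF1, NHP2 and TINF2 hardly move.

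Taking exonic reads by region, the 3'UTR held most of them on 4 of the 8 members with FH-DHX36-E335A (NHP2, TERF2IP, TERF1 and TINF2), compared with 64.0% of all genes, and the CDS on 3 (GAR1, TERF2 and ACD). With FH-DHX36 the 3'UTR held most on 4 of 6, compared with 47.8% of all genes, but TERF2IP is counted on 69 reads in the 3'UTR against 68 in the CDS. No FH-DHX36 read of the group lay in a 5'UTR or an intron, where 7.97% and 8.51% of all FH-DHX36 reads fell. These reads came from only 10 clusters, 8 of them exonic. For 0 of 8 exonic clusters in 5'UTRs the interval was 0 to 32.4%, which includes the 10.2% of all genes. Summed over the members, 55.5% of exonic FH-DHX36-E335A reads were in the 3'UTR (54.3% to 56.8%) and 43.1% in the CDS, while by length 37.3% of the 8 mRNAs is 3'UTR. Over all genes 71.9% of these reads were in the 3'UTR and 22.9% in the CDS, so the 3'UTR share of the members was lower and their CDS share higher. Relative to length, the 3'UTR share of reads was 1.49 times the length share for the members and 1.37 times for all genes. By clusters in place of reads it was 1.12 times for both, so the difference depends on read depth within clusters. The sum rests on few genes. Without GAR1 the 3'UTR share was 82.6%, and the FH-DHX36 share of 61.8%, compared with 51.4% over all genes, was 37.3% without NHP2. The members are mostly short mRNAs. Of the 10, 8 were shorter than the median of 3576 nt for genes with an FH-DHX36-E335A cluster, and 8 had a shorter 3'UTR than the median of 1536 nt. A guanine share above the median of 24.0% was found in 8 of 10, all but TERF1 and POT1.

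Of 25 other genes of telomerase assembly and telomere maintenance, 16 (64%) had an FH-DHX36-E335A cluster and 12 (48%) an FH-DHX36 cluster. The shares were 80% and 60% for the members and 34.5% and 22.4% for all identifiers. The median over bound genes was 306 FH-DHX36-E335A reads and 88.5 FH-DHX36 reads, compared with 618 and 210.5 for the members. The member medians rest on few genes, since the bound shelterin mRNAs alone had medians of 411 and 66 reads. The FH-DHX36 median NXPM was 6.86 for the other genes and 6.02 for the members. With FH-DHX36-E335A the order was reversed, at 6.22 for the other genes and 8.16 for the members. The most FH-DHX36-E335A reads fell on RUVBL1, an ATPase that helps to assemble telomerase, with 710, on NBN, of the MRE11 complex, with 554, and on SHQ1, the assembly chaperone of DKC1, with 537. For these 3 genes the FH-DHX36 PAR-CLIP listed 58, 171 and 37 reads. All 4 proteins of the box C/D particles, the sister class of H/ACA particles, had FH-DHX36-E335A clusters, with 416 to 8835 reads, and 3 had FH-DHX36 clusters. Of 37 genes of the DNA replication machinery, 36 (97.3%) were bound in the FH-DHX36-E335A PAR-CLIP and 26 (70.3%) with FH-DHX36. Their medians were 493.5 and 111.5 reads. The box C/D and replication genes were thus bound in higher shares than the members.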

How the data were processed

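The authors ran PARpipe on reads mapped to hg19, in which PARalyzer called the clusters, and annotated them by GENCODE v19. The submitters' processing notes name bcl2fastq 2.17.1. Other versions are not given in the sources used here. Per gene and cell line, the authors deposited counts of clusters and of crosslinked reads, without normalization, and NXPM, a score of scaled crosslinked reads divided by mRNA abundance. Every value column was mapped to a cell line. Abundance was recovered as reads per 1000000 divided by NXPM, minus 0.001, and was the same within 0.1% in both PAR-CLIPs for 99.6% of shared genes. Reads of other annotation are the total minus 5'UTR, CDS, 3'UTR and intron.

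Ratios used reads scaled to each total (ratio of totals 4.05), with exact conditional binomial intervals, shares used Wilson intervals and reads Poisson intervals, all at 95%. Tests planned for replicates were not run, since the columns pool them. PCR copies are not independent molecules. Region lengths were those of the canonical coding transcript in GENCODE release 44 (GRCh37, as hg19). Of 26369 distinct identifiers 23823 were matched, the members among them. Unspliced matches of at most 30 nt, except those on chromosome 8, were checked against the genome. Scripts ran in Python 3.11.15 with scipy 1.17.1, and the ratios and abundances were tested on simulated data. The members and lists were chosen with earlier results of these data known. Text names all members, the 3 other telomere genes with the most FH-DHX36-E335A reads, TERC, and the 3 genes closest to GAR1. Marker genes, box C/D genes and replication genes were fixed as lists.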

Additional observations from a re-analysis of the deposited data

How the results depend on the processing

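No paired analysis was possible because the columns carry no replicate number, and leaving out a replicate was not possible for the same reason. Requiring at least 2 clusters left 3 of 6 members bound with FH-DHX36 and 7 of 8 with FH-DHX36-E335A. Most bound genes also had more than 1 cluster. By cluster number, genes with 1 cluster shared rank 3361 among 5930 genes with FH-DHX36, and rank 7574 among 9131 with FH-DHX36-E335A. With clusters in place of reads, 0 members were at least 2-fold lower with FH-DHX36-E335A, and 4 ratios crossed 1, those of GAR1 (1.25), TINF2 (0.834), TERF1 (0.556) and NHP2 (0.556). The median of all shared genes was then 0.834. With exonic reads alone the count of members at least 2-fold lower was also 0, as TERF2IP turned from 0.445 to 1.60. The 3'UTR share of exonic FH-DHX36-E335A reads was 55.5%. By clusters it was 41.7% (27.1% to 57.8%), compared with 59.2% over all genes. Over the length share, the share of reads was 1.49 with canonical transcripts and 1.43 with the longest, and for FH-DHX36 1.54 and 1.40 (all genes, canonical, 1.37 and 0.975). Without GAR1 the first was 2.19, and without NHP2 the FH-DHX36 value was 0.914, below 1. Runs of at least 3 guanines left 3 of 72 matches, and gaps of up to 12 nt gave 90. Scaling to exonic reads, to the median ratio or without DHX36 and mitochondrial genes changed no direction of the 6 ratios. These settings multiply every ratio by the same factor, so they could move only ratios close to 1 across it. The NXPM ratio equals the scaled read ratio where abundance is the same in both PAR-CLIPs, as for all 6, and is no separate check. The cause of the FH-DHX36 zeros of POT1 and ACD was not tested.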
